A study of Mus musculus with 30 samples.

Results

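Within the chronic jet lag group, the 16 ADV mice were divided by a readout of their own muscle clock. The groups were chosen by measured values: in each library the FPKM of Dbp was divided by the FPKM of Bmal1, and the 8 mice with the highest ratios (the high-ratio group) were compared with the 8 mice with the lowest (the low-ratio group) across all genes. These 16 mice are part of a series of 30, the other 14 being LD mice. All mice were male, wild-type C57BL/6J, housed singly with a running wheel, and young adult when the schedules began. All had first lived in a regular light-dark cycle and then in constant darkness. LD mice then stayed for 64 weeks in a fixed cycle with 12 h of light a day, and ADV mice spent the same 64 weeks in a cycle that was advanced by 8 h every 4 days. Poly(A)-enriched, stranded RNA of the gastrocnemius was sequenced, 1 library per mouse, so every library is a separate animal. The study's methods say that tissue was taken from morning to late afternoon at a time when both schedules had the same light phase. The hour for each mouse is not given in the sources used here, so the hour of collection and the state of a mouse's clock cannot be told apart.

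The circadian clock of a cell is a loop of transcription factors. BMAL1 pairs with CLOCK or NPAS2 and activates genes that carry an E-box, among them Dbp, the Per and Cry genes, Ciart, Nr1d1 and Nr1d2. PER and CRY proteins then repress that activation, NR1D1 and NR1D2 (REV-ERB) repress Bmal1, Clock and Npas2 through RORE sequences, and ROR proteins activate the same sequences. DBP, TEF and HLF activate genes through D-box sequences, where NFIL3 represses. Dbp and Bmal1 therefore rise and fall at nearly opposite times of day, and in skeletal muscle this loop drives daily rhythms in many metabolic and structural genes.

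Because the ratio was made from Dbp and Bmal1, these 2 genes are described and not tested. They were also left out of all counts of genes tested or called and, with edgeR and limma, of the adjustment for multiple tests. With DESeq2 they were taken out only after the adjustment. The members of the comparison are the mice. The genes described first are 19 clock genes other than that pair, of which 17 passed the filter on low values (averages above 20 reads and above 0.5 FPKM over the 30 mice). Bmal2 and Rorb did not, with highest values of 0.567 and 0.035 FPKM in ADV mice.

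The 250 bases upstream of the annotated start are shown for Per3, Per2, Ciart and Npas2, 4 of the 5 clock genes with an unadjusted p under 0.05 between the groups, and for Nr1d1, which had another pattern. Sequences are from GRCm39, 5′ to 3′ on the strand of the gene, with matches in capitals. The motifs searched on both strands were the E-box CACGTG, the E′-box CACGTT, the D-box TTATGTAA, the RORE core AGGTCA and the cyclic AMP response element TGACGTCA, none of which contains another. Per3 is shown at chr4:151129123-151129372, Per2 at chr1:91387047-91387296, Ciart at chr3:95789544-95789793, Nr1d1 at chr11:98666160-98666409 (all minus strand) and Npas2 at chr1:39233043-39233292 (plus strand).
Per3: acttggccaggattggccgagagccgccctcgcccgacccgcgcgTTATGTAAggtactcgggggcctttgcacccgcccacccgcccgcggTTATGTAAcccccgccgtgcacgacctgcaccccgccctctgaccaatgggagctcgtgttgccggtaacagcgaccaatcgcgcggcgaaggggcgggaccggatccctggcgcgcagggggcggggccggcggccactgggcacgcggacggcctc
Per2: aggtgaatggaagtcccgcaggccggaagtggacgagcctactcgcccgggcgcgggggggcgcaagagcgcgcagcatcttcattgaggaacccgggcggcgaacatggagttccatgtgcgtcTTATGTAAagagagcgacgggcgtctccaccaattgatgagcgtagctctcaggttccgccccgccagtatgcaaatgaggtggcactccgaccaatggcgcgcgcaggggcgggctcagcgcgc
Ciart: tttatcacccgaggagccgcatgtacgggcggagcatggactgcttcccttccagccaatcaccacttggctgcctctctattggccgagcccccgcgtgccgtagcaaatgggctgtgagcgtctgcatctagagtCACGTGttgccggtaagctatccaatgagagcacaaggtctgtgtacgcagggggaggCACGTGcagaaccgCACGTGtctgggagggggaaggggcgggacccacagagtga
Nr1d1: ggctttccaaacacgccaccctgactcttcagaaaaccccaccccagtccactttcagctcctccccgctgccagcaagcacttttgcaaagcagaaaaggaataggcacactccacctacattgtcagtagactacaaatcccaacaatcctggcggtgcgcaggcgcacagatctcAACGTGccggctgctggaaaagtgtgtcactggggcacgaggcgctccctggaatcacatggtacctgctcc
Npas2: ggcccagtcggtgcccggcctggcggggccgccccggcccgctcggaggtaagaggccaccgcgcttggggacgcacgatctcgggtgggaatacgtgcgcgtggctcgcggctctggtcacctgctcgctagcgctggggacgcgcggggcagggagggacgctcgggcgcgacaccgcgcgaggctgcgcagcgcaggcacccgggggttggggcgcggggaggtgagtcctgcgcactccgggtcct
Per3 holds 2 D-boxes, which begin at positions -205 and -158 relative to the start, and Per2 holds 1 D-box at -125. Ciart holds 3 E-boxes, at -113, -55 and -41. The window of Nr1d1 has 1 E′-box at -72, and none of the 5 motifs is in the windows of Npas2 and of Clock, the fifth such gene. The same windows were read for 12028 of the 12030 genes over the filter, Dbp and Bmal1 included. Of these, 0.4988% held a D-box, 8.289% an E-box, 4.623% an E′-box, 10.7% a RORE core and 2.669% a cyclic AMP response element. A match describes the letters and is not evidence of a bound site, and elements farther from the start or in introns were not searched.

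The ratio of Dbp to Bmal1 ran from 0.184 in ADV mouse 31 to 2.63 in ADV mouse 21, numbered as in the labels. In the high-ratio group the lowest, median and highest ratios were 0.547, 0.634 and 2.63, and in the low-ratio group 0.184, 0.371 and 0.436. The mouse just inside the high-ratio group was mouse 27 (0.547), and the mouse just outside was mouse 36 (0.436). The groups overlapped in Dbp and in Bmal1 taken alone. Dbp was at 8.00, 9.83 and 17.8 FPKM (lowest, median, highest) in the high-ratio group and 3.98, 6.04 and 8.66 FPKM in the low-ratio group. Bmal1 was at 6.75, 14.04 and 18.5 FPKM in the high-ratio group and 14.002, 19.4 and 21.6 FPKM in the low-ratio group. Mouse 21 stood apart, with a ratio 2.29 times that of the next mouse, and calls that rest on it are given with and without it. Reads of Dbp may also include some from Sphk2, which covers 29.34% of its exon bases on the other strand and had a log2 fold change of -0.12 between the groups (p = 0.113). LD mice covered a wider range, from 0.227 to 9.90. The ratio was above the highest ADV value in 7 of 14 LD mice, and 1 LD mouse (mouse 34) was within the range of the low-ratio group. The highest ratio was 14.3 times the lowest among ADV mice and 43.5 times among LD mice.

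**Figure D1:**
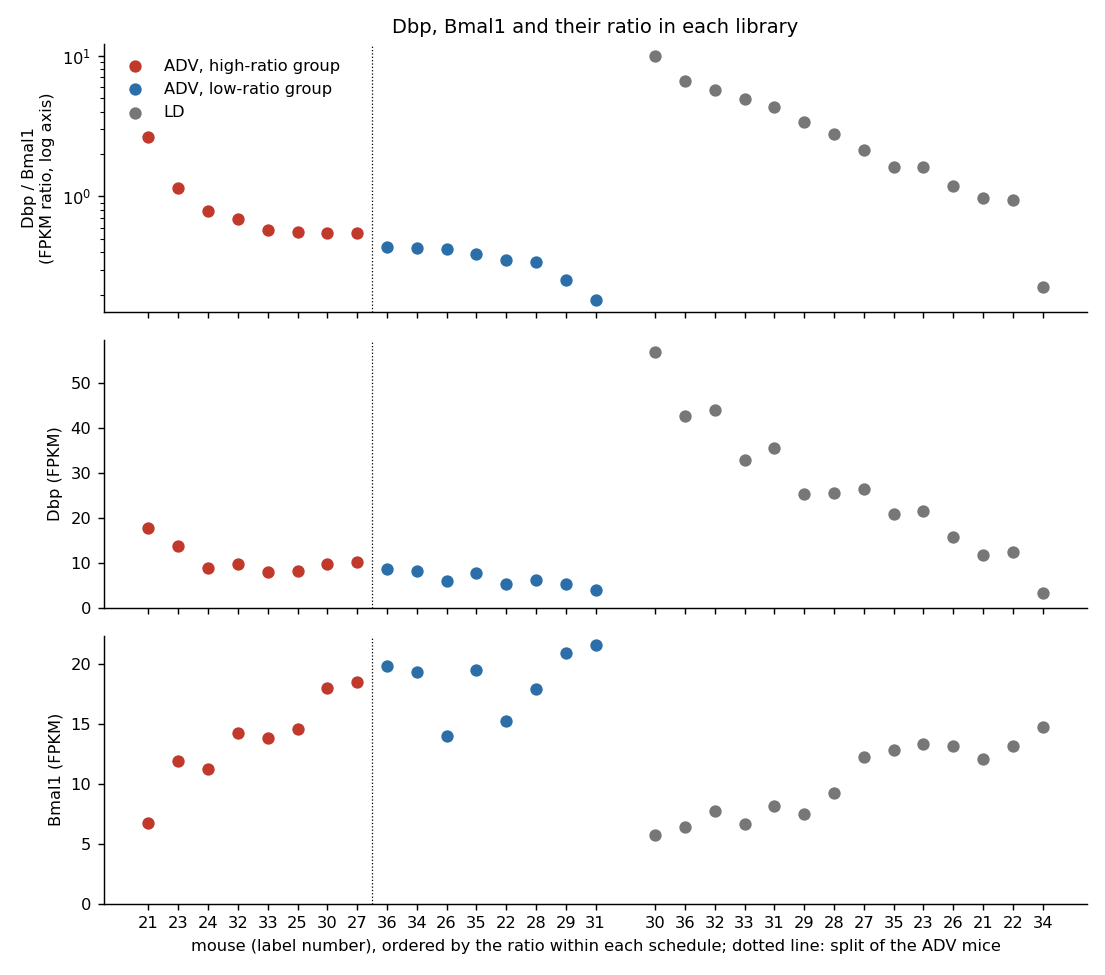
Ratio of Dbp to Bmal1 (top, log axis), Dbp FPKM (middle) and Bmal1 FPKM (bottom) in each library, 1 point per mouse, ordered by the ratio within the ADV and the LD mice. The split lies between mouse 27 at 0.547 and mouse 36 at 0.436, and mouse 21 at 2.63 is far above the other ADV mice.

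No gene passed the threshold between the groups. A gene was called where its FDR was under 0.05 and it differed more than 1.3-fold, and the quasi-likelihood test of edgeR called 0 of 12028 genes (0%), and the smallest FDR was 0.757. At an unadjusted p under 0.05 there were 680 genes (5.65%), of which 493 were higher in the high-ratio group (4.1%) and 187 lower (1.55%). DESeq2, whose adjustment still held Dbp and Bmal1, called 1 gene, Ctsk. The median log2 fold change of all genes, high-ratio minus low-ratio, was -0.01. The split is therefore named here by its ratio and not as 2 clock phases. Because it was made from genes of the same libraries, each p-value describes how a gene went with the ratio in these mice. Of the 17 clock genes 0 were called and 5 had an unadjusted p under 0.05. Per2, Per3 and Ciart were on the high side and Clock and Npas2 on the low side. In no clock gene were the groups free of overlap, but the share of all genes without overlap was not counted. Values below are the lowest, median and highest FPKM of the 8 mice of a group, and p-values are unadjusted unless an FDR is named.

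Among the genes that BMAL1 activates and that feed back on it, Per3 and Per2 had the smallest p-values. Per3, a period gene with a modest role in the core loop, was at 1.33, 2.20 and 3.76 FPKM in the high-ratio group and 1.06, 1.51 and 1.80 FPKM in the low-ratio group. All low-ratio mice were below 6 of the 8 high-ratio mice. Its log2 fold change was 0.58 with a standard error of 0.17 (95% interval 0.22 to 0.93, p = 0.00308, FDR 0.757). Per2, a main repressor of the BMAL1 complex, was at 0.982, 3.49 and 4.05 FPKM in the high-ratio group and 1.25, 1.80 and 2.36 FPKM in the low-ratio group. In 6 high-ratio mice Per2 was above every low-ratio mouse, and in the other 2, mice 30 (1.14 FPKM) and 27 (0.982 FPKM), it was below every low-ratio mouse. The log2 fold change was 0.78 (standard error 0.25, p = 0.00681, FDR 0.757). Mice 30 and 27 had the lowest ratios of their group. Per3 and Per2 kept an unadjusted p under 0.05 when any 1 of the 16 mice was left out.

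Ciart, a repressor of the BMAL1 and CLOCK complex, was at 0.53, 1.09 and 4.91 FPKM in the high-ratio group and 0.298, 0.736 and 1.63 FPKM in the low-ratio group. Its log2 fold change of 1.03 (standard error 0.46, p = 0.0379, FDR 0.855) rested in part on mouse 25, at 4.91 FPKM. Without that mouse it was 0.52 (p = 0.193), and the p was under 0.05 in 8 of the 16 fits that left out 1 mouse. Per1, which also responds to glucocorticoids and cyclic AMP, had a log2 fold change of 0.48 (standard error 0.37, p = 0.213) and values of 2.67 to 18.3 FPKM against 2.40 to 12.1 FPKM. The groups therefore overlapped over most of its range. Cry2 was at 12.6, 14.1 and 15.5 FPKM against 10.3, 12.3 and 14.4 FPKM, and all 8 high-ratio mice were above the low-ratio median. Its difference was small (log2 fold change 0.15, standard error 0.08, p = 0.0570). Cry1, whose peak is later than that of the other E-box genes, was at -0.17 (standard error 0.13, p = 0.217).

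Nr1d1 had another pattern. This REV-ERB gene was at 9.48, 14.5 and 83.1 FPKM in the high-ratio group and 8.80, 33.8 and 68.2 FPKM in the low-ratio group. The median was thus lower in the group with more Dbp, although the highest value of all 16 mice was in a high-ratio mouse (mouse 30). The log2 fold change was -0.35 with a wide 95% interval of -1.39 to 0.69 (p = 0.490). In the 5 mice ranked second to sixth by the ratio Nr1d1 stayed between 9.48 and 15.1 FPKM while Per2 was between 3.42 and 4.05 FPKM. In mice 30 and 27 this was turned around, with Nr1d1 at 83.1 and 57.9 FPKM and Per2 at its lowest. Some low-ratio mice were like them. Mice 36, 35 and 34 had Nr1d1 at 68.2, 67.5 and 49.8 FPKM and Per2 at 1.45, 1.67 and 1.48 FPKM. The other low-ratio mice had Nr1d1 between 8.80 and 35.2 FPKM. The split thus parted mice with a similar pattern. Nr1d2, its paralog, was at 0.06 (standard error 0.15), with medians of 11.7 and 12.6 FPKM. The repressors Bhlhe40 (DEC1) and Bhlhe41 (DEC2) had log2 fold changes of 0.23 and 0.02 (p = 0.150 and 0.894). Thra, which lies opposite Nr1d1 and shares 49.17% of the exon bases of Nr1d1, had a log2 fold change of 0.01. The sources used here do not say if strand entered the counting, so reads in such overlaps cannot be given to either gene.

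**Figure D2:**
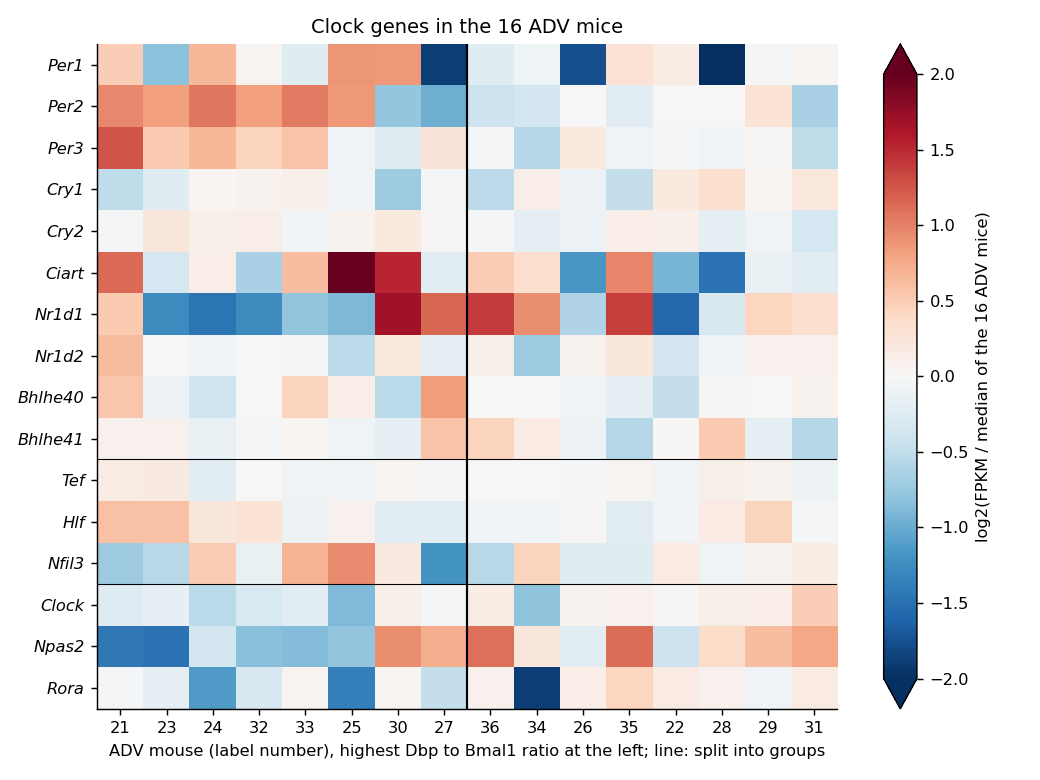
Level of 16 clock genes (rows: E-box repressors, then D-box factors, then activators and Rora) in the 16 ADV mice (columns, highest Dbp to Bmal1 ratio at the left), as log2 of FPKM over the median of the 16 mice. Per2 is high in the 6 mice at the left and low in mice 30 and 27, where Nr1d1 and Npas2 are high. Low-ratio mice 36 and 35 also have low Per2 with high Nr1d1 and Npas2.

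In the D-box family 0 of 3 genes had an unadjusted p under 0.05. Tef, a relative of Dbp, was at 49.7, 56.9 and 65.3 FPKM in the high-ratio group and 53.8, 57.9 and 62.5 FPKM in the low-ratio group (log2 fold change -0.02, 95% interval -0.15 to 0.11). This interval is narrow, so that a difference in Tef the size of that of Per3 is outside it. Hlf was at 0.12 (standard error 0.13, p = 0.362). Nfil3, which opposes DBP at the same sequences, was at 14.6, 34.1 and 64.7 FPKM against 22.9, 33.6 and 45.8 FPKM. Its medians were alike, and its spread was wider among high-ratio mice (log2 fold change 0.12, standard error 0.25). The sign for Tef and for Nfil3 changed with the way the ratio was used.

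In the activating arm Npas2, Clock and Rora lay on the low side. Npas2, which can replace CLOCK as the partner of BMAL1, was at 0.180, 0.285 and 0.958 FPKM in the high-ratio group and 0.378, 0.708 and 1.09 FPKM in the low-ratio group. In 5 high-ratio mice it was below every low-ratio mouse. The other 3 were mouse 24 (0.387 FPKM), close to the lowest low-ratio mouse, and mice 30 (0.958 FPKM) and 27 (0.826 FPKM), above the low-ratio median. Npas2 had a log2 fold change of -0.80 (standard error 0.34, p = 0.0284, FDR 0.822). Clock was at 2.19, 3.42 and 4.36 FPKM against 2.32, 4.32 and 5.64 FPKM (log2 fold change -0.35, standard error 0.14, p = 0.0276, FDR 0.818). In the low-ratio group 6 mice were between 4.08 and 4.49 FPKM, mouse 34 was at 2.32 FPKM and mouse 31 at 5.64 FPKM. With 1 mouse left out, the p stayed under 0.05 in 13 of 16 fits for Clock and in 9 of 16 for Npas2. Rora, a receptor that activates RORE genes, was at -0.37 (p = 0.154). Tmem165 shares 11.75% of the exon bases of Clock on the other strand, and Gm53549 16.2% of those of Npas2.

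**Figure D3:**
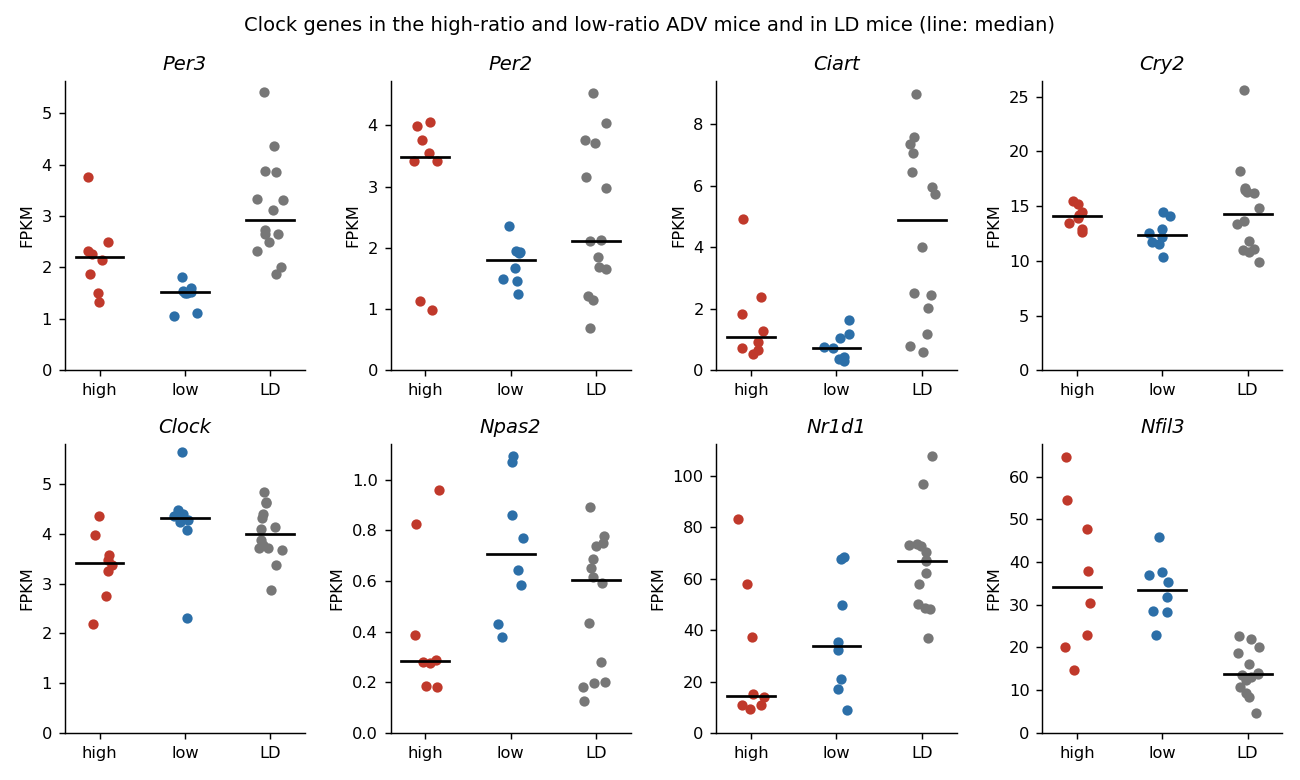
FPKM of 8 clock genes in each mouse (points) of the high-ratio and low-ratio ADV groups and of the LD schedule, with the median of each group as a line. Per2 in the high-ratio group falls into 6 mice at 3.42 to 4.05 FPKM and 2 at 0.982 and 1.14 FPKM, and the ranges overlap in every gene shown.

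**Figure D4:**
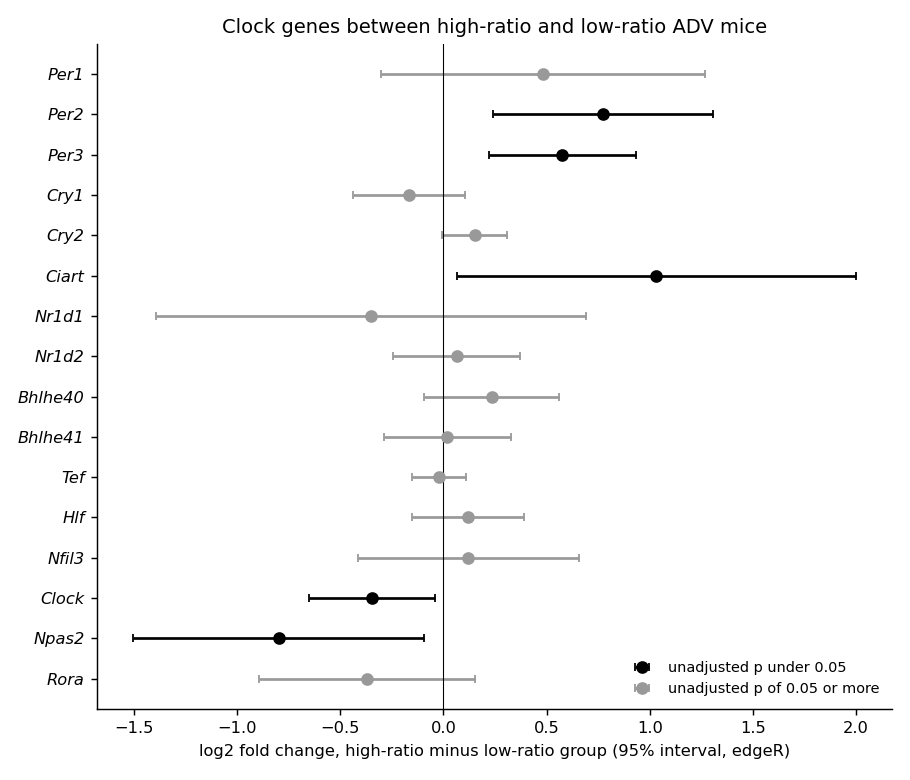
Log2 fold change of 16 clock genes, high-ratio minus low-ratio ADV mice, with its 95% interval from edgeR, black where the unadjusted p was under 0.05. Per2, Per3 and Ciart are right of 0 and Clock and Npas2 left of 0, and none passed an FDR of 0.05.

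Genes known as clock outputs in many tissues were read next. In a list of 19 such genes, 17 were tested and 0 were called. On the high side 4 had an unadjusted p under 0.05 (Wee1, Coq10b, Tspan4 and Por), and on the low side 1 (Leo1). At that level 4.1% of all genes were on the high side and 1.55% on the low side. The median of the list was 0.11, against -0.01 for all genes. Wee1, a kinase that restrains entry into mitosis and an E-box target of the clock, was at 0.388, 1.29 and 1.43 FPKM in the high-ratio group and 0.333, 0.524 and 1.004 FPKM in the low-ratio group. Its log2 fold change was 0.88 (standard error 0.28, p = 0.00520, FDR 0.757). Mice 30 and 27 were low in Wee1 as in Per2, at 0.388 and 0.476 FPKM. Coq10b, which takes part in the use of coenzyme Q in mitochondria, was at 1.80, 3.67 and 10.8 FPKM against 1.71, 2.27 and 3.34 FPKM (log2 fold change 0.78, standard error 0.29, p = 0.0134). Its highest value was that of mouse 21, at 10.8 FPKM. Usp2, a deubiquitinase under strong clock control, was at 0.11 (standard error 0.11, p = 0.315).

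Of 19 tested genes that modify clock proteins, such as the casein kinases and the ubiquitin ligase subunits, 0 had an unadjusted p under 0.05. The smallest p-values were those of Fbxw11 (log2 fold change -0.09, p = 0.0943) and Btrc (0.08, p = 0.171). Among 23 tested genes named as clock outputs of muscle, 0 had an unadjusted p under 0.05 and the median was -0.03. Tcap, a cap protein of the sarcomere, was at 1935.6 FPKM in the median high-ratio mouse and 1643.5 FPKM in the median low-ratio mouse (log2 fold change 0.17, p = 0.0722). Slc2a4, the insulin-responsive glucose transporter GLUT4, was at -0.12 (p = 0.0724). All 8 high-ratio mice were above the low-ratio median of Tcap. The 95% intervals of both genes spanned 0.

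Lists of genes that follow feeding, hormones and stress were read beside the clock genes, since such signals reach muscle clocks. Immediate early genes, which respond to stimuli within minutes, were higher in the high-ratio group in 20 of 22 cases, with a median log2 fold change of 0.39, but 0 were called. Over all genes tested, 5576 of 12028 were higher. Members of a list were measured in the same mice and are not independent cases. Ccn2 (0.67, p = 0.0128), Jund (0.41, p = 0.0165), Nr4a1 (0.78, p = 0.0220) and Klf2 (0.59, p = 0.0315) had an unadjusted p under 0.05. Of 20 genes of the heat and cold responses, 3 were on the high side at that level and 0 on the low side. Of all genes tested, 4.1% and 1.55% were. Hspa1b and Hspa1a, near-identical heat shock genes, were at 1.69 (standard error 0.67, p = 0.0208) and 1.42 (p = 0.0309). The study removed reads of low mapping quality, so reads that fit both genes may be missing from their counts. Hspa1b ran from 1.29 to 48.8 FPKM in the high-ratio group, its highest value being that of mouse 25, and from 1.09 to 8.76 FPKM in the low-ratio group.

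Irs2, an adaptor of the insulin receptor that rises in fasting, was at 3.15, 7.16 and 25.1 FPKM in the high-ratio group and 2.51, 4.16 and 10.3 FPKM in the low-ratio group (log2 fold change 1.15, standard error 0.42, p = 0.0133). Bcl6, a repressor in the same list of 17 tested genes, was at -0.44 (p = 0.0272). Fkbp5, a chaperone induced by glucocorticoids, was at -0.87 (standard error 0.36, p = 0.0277). It was the only 1 of 19 tested glucocorticoid targets with an unadjusted p under 0.05, and its medians were 13.0 and 13.3 FPKM, the low-ratio group reaching 50.1 FPKM. Cdkn1a, of the same list, was at -0.69 (p = 0.0982). Among 11 myogenic genes Myh3, the embryonic myosin heavy chain, was at 0.57 (p = 0.0257) and Myod1, the muscle regulator, at -0.42 (p = 0.126). Of the 11 genes of the TWEAK and NF-kB list 0 had an unadjusted p under 0.05, the smallest being that of Traf3 (0.12, p = 0.129) and Tnfrsf1b (0.21, p = 0.135).

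Markers of cells and fibre types were read in the same way, and 0 of them were called. In bulk muscle, fewer cells of a type and less RNA per cell cannot be told apart. All 8 adipocyte markers were higher in the high-ratio group, 5 of them at an unadjusted p under 0.05, with a median log2 fold change of 0.97. Of all 12028 genes tested, 5576 were higher, and 4.1% were higher at an unadjusted p under 0.05. Lep (leptin) was at 2.04 (standard error 0.64, p = 0.00483), Cidec at 1.40 (p = 0.0073), Plin1 at 1.34 (p = 0.00819), Adipoq at 1.31 (p = 0.00911) and Fabp4 at 0.35 (p = 0.0159). The 8 markers summed to 232, 417 and 704 FPKM (lowest, median, highest) in the high-ratio group and 194, 285 and 361 FPKM in the low-ratio group (exact two-sided permutation test, p = 0.0416, adjusted p = 0.487 over 13 library measures). All 9 slow-fibre genes were also higher, 5 at an unadjusted p under 0.05, with a median of 0.57. Casq2, the calcium-binding protein of slow and cardiac muscle, was at 0.50 (p = 0.00709), Atp2a2 at 0.60 (p = 0.0217) and Myh7 at 0.85 (p = 0.0249). The slow-fibre sum was at 431, 1037 and 2293 FPKM against 345, 731 and 970.2 FPKM (exact p = 0.0749), with mouse 24 highest in this sum and in the adipocyte sum. Fast-fibre genes, which define the gastrocnemius, summed to medians of 74064 and 76570 FPKM (exact p = 0.648), and Myh2 (0.43, p = 0.0339) was the 1 gene of 10 with an unadjusted p under 0.05.

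Of the 8 fibroblast markers 6 were higher and 2 lower in the high-ratio group. Lum (0.43, p = 0.00653), Col1a2 (0.31, p = 0.0109) and Col1a1 were on the high side at an unadjusted p under 0.05. The 8 markers summed to medians of 355 and 339 FPKM (exact p = 0.306). Ncam1, a denervation marker, was at 0.45 (p = 0.00925) and Musk at -0.27 (p = 0.0648). Schwann cell, leukocyte, endothelial and red cell markers had 0 genes at that level and list medians of 0.28, -0.02, 0.06 and 0.06. The smallest p-values there were those of Prx (0.34, p = 0.162), a myelin protein, Cd68 (0.33, p = 0.118) of macrophages, Tie1 (0.12, p = 0.156) of endothelium and the globin gene Hba-a2 (0.17, p = 0.222). In addition, 0 of the markers were at 0 in all ADV mice. The part of fat, fibre type or other cell types in the clock gene differences was not tested. With the adipocyte sum as a covariate, 296 genes had an unadjusted p under 0.05 and 0 were called. Per3 (0.57, p = 0.0101), Per2 (0.80, p = 0.0170) and Ciart (1.26, p = 0.0238) had an unadjusted p under 0.05. Clock was at -0.29 (p = 0.109) and Npas2 at -0.76 (p = 0.0680), with folds close to those without the covariate. This covariate was chosen after the data were seen.

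ADV libraries held 18875500 to 25699600 reads on exons, with medians of 22103450 in the high-ratio and 23298850 in the low-ratio group (exact p = 0.291). Shares on exons, in the top 20 rows and on the mitochondrial chromosome had exact p-values of 0.497, 0.384 and 0.714, and 0 of the 13 measures had an adjusted p under 0.05. The smallest p that 8 mice against 8 allow is 0.000155. The label number of a mouse, the only order the labels give, was not correlated with the log2 ratio at p under 0.05 (Pearson's r = -0.482, permutation p = 0.0550; Spearman's rho = -0.326, permutation p = 0.217). Without mice 21 and 36, at the ends of the numbers, r was -0.301 (permutation p = 0.300). Among LD mice r was 0.311 (permutation p = 0.279) and rho was 0.490 (permutation p = 0.0783). No batch is named in the labels.

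To see whether the same genes follow the ratio on a fixed light cycle, each gene was fitted against log2 of the ratio within each schedule, over all 30 mice. The slope is the log2 change of a gene per doubling of the ratio, and LD mice took no part in the split. In ADV mice 3 of 12028 genes had an FDR under 0.05 (0.0249%), and in LD mice 43 did (0.357%). At an unadjusted p under 0.05 the counts were 815 (6.78%) and 1513 (12.6%). ADV slopes were less precise, with a median standard error of 0.056 against 0.037 in LD mice. The log2 ratio also varied less among ADV mice, with a standard deviation of 0.885 against 1.43. The counts alone therefore do not compare how closely genes followed the ratio in each schedule. Of the 17 clock genes, 1 was called in ADV mice and 4 in LD mice, and 7 and 13 had an unadjusted p under 0.05. The slopes had the same sign in 15 of the 17, the exceptions being Nr1d1 and Rora, and in 45.2% of all genes. The clock genes share a loop with Dbp and Bmal1 and were measured in the same mice, so they are not independent cases. Many ADV slopes depended on mouse 21: without it 11 of the 17 moved by over 1.5 times or turned sign, 14 had the sign seen in LD mice, and 4 had an unadjusted p under 0.05. With edgeR the difference between the slopes passed an FDR of 0.05 for 0 genes (0%, smallest FDR 0.116), and with DESeq2 for 39. In edgeR 1257 genes (10.5%) had an unadjusted p under 0.05 for it, among them 1 clock gene.

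Per3 was the clock gene called in ADV and in LD mice. Its slope was 0.43 in ADV mice (standard error 0.06, FDR 4.54e-04) and 0.27 in LD mice (standard error 0.04, FDR 0.00149). The difference of 0.16 had a 95% interval of 0.01 to 0.31 (p = 0.0364, FDR 0.432). In LD mice Per3 stayed called when any of the 14 mice was left out, whereas in ADV mice the call was lost without mouse 21 (slope 0.39, FDR 0.175). The slope itself thus moved little. Per2 had slopes of 0.45 in ADV and 0.41 in LD mice (p = 0.00506 and 2.19e-04, FDR 0.524 and 0.0520), with an interval for the difference of -0.33 to 0.40. Npas2 had slopes of -0.69 and -0.48 (FDR 0.494 and 0.0636), and Hlf of 0.15 and 0.15 (p = 0.0208 and 0.00118). Clock and Cry1 had negative slopes in ADV and LD mice, of -0.19 and -0.08 and of -0.16 and -0.09. The unadjusted p was under 0.05 in ADV mice for both and in LD mice for Cry1. Without mouse 21 the ADV slopes of Per2 (0.57, p = 0.00924) and Npas2 (-0.71, p = 0.00949) were close to those with it, Clock was at -0.32 (p = 0.00167), and Cry1 (-0.15, p = 0.119) and Hlf (0.094, p = 0.287) were no longer under 0.05.

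Ciart, Cry2 and Tef were called in LD mice alone, though the difference between schedules was not called for any of them. The slope of Ciart was 0.33 in ADV and 0.74 in LD mice (FDR 0.921 and 0.0497), with a difference of -0.41 and a 95% interval of -1.09 to 0.27. Cry2 had slopes of 0.08 and 0.20 (FDR 0.921 and 0.0420, difference interval -0.28 to 0.05), and without mouse 21 its ADV slope was 0.17 (p = 0.0729), close to that in LD mice. Tef had slopes of 0.03 and 0.12 (FDR 0.935 and 0.0403, difference interval -0.18 to 0.01). These LD calls were close to the threshold. With 1 LD mouse left out the count of genes called in LD mice ranged from 2 (without mouse 21 or 32) to 45 (without mouse 30), and Ciart, Cry2 and Tef stayed called in 1, 4 and 6 of 14 such fits. Nr1d1 had slopes of -0.16 and 0.08, both with intervals that span 0, and without mouse 21 an ADV slope of -0.59 (p = 0.170). Nr1d2 had slopes of 0.12 and 0.13, and without mouse 21 an ADV slope of -0.045. Rora was at -0.12 in ADV mice and at -0.31 without mouse 21 (p = 0.0821).

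**Figure D5:**
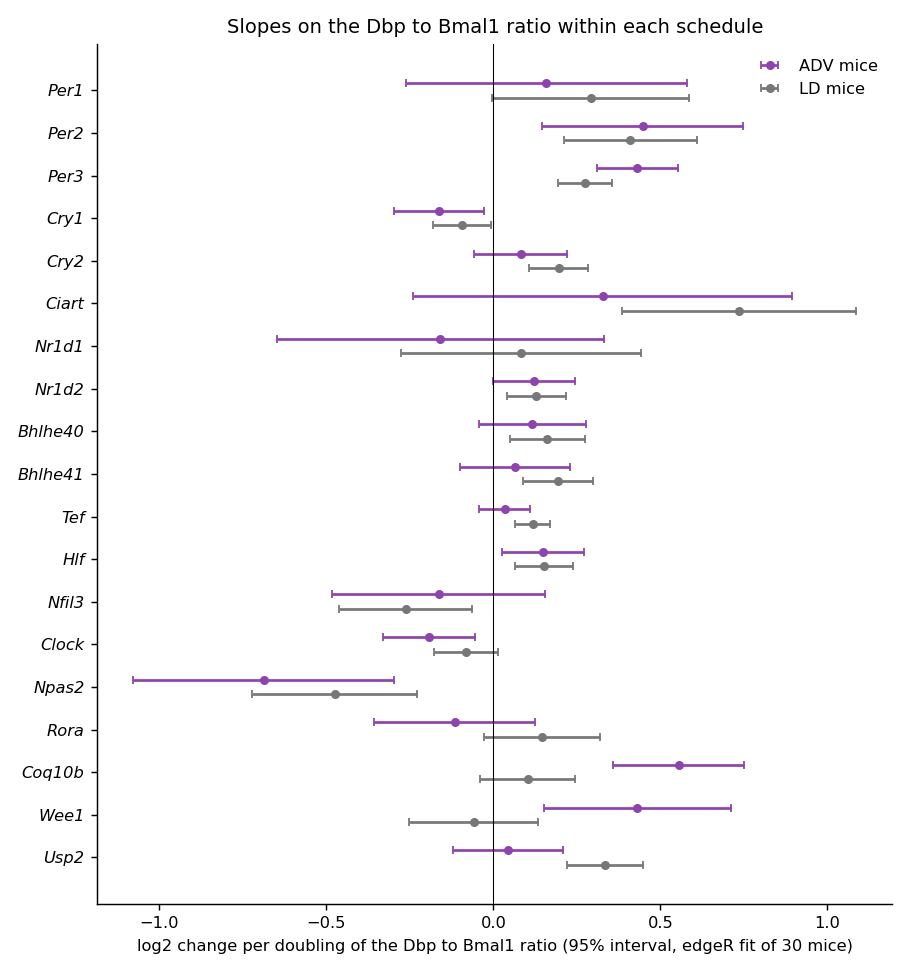
Slope of 16 clock genes and of Coq10b, Wee1 and Usp2 on log2 of the Dbp to Bmal1 ratio, in ADV and LD mice, with 95% intervals from the edgeR fit of all 30 mice. Per2, Per3, Npas2, Hlf and Cry1 have intervals that leave out 0 in both schedules, while Usp2 has a slope of 0.33 in LD and 0.04 in ADV mice.

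Genes called in LD mice, 4 of them clock genes, were compared with their slopes in ADV mice. Of the 43 genes called in LD mice, 23 had a slope of the same sign in ADV mice (53.5%, against 45.2% of all genes), 5 of them with an unadjusted p under 0.05 there and 1, Per3, with an FDR under 0.05. The other 20 had the opposite sign, 2 of them with an unadjusted p under 0.05. Among the 39 that are no clock genes, 19 had the same sign, 4 of them with an unadjusted p under 0.05. Usp2 had a slope of 0.33 in LD mice (standard error 0.06, FDR 0.00742), which held when any LD mouse was left out. In ADV mice it was 0.04 (standard error 0.08, FDR 0.973), and the difference of -0.29 had a 95% interval of -0.49 to -0.09 (p = 0.00576, FDR 0.240). Ucp3, an uncoupling protein of muscle mitochondria, had slopes of -0.23 in ADV and 0.74 in LD mice (difference p = 0.00168, FDR 0.192). Tspan4, a tetraspanin, had slopes of 0.20 and 0.19 (p = 0.00596 in ADV mice, FDR 0.0485 in LD mice), with a difference interval of -0.15 to 0.17.

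Coq10b and Colec12 were the other 2 genes called in ADV mice in the fit of 30 mice. In a fit of the 16 ADV mice alone their FDR was 0.434 and 0.754, and Per3 was the 1 gene called (FDR 0.0242). Coq10b had a slope of 0.55 in ADV mice (standard error 0.10, FDR 0.0158) and 0.10 in LD mice (FDR 0.622). Without mouse 21 its ADV slope was 0.25 (FDR 0.694). Colec12, a scavenger receptor, had slopes of 0.25 (standard error 0.05, FDR 0.0320) and -0.00 in ADV and LD mice, and was called in 12 of the 16 fits that left out 1 ADV mouse. Without mouse 21, 0 genes were called on the ADV slope. Wee1 had slopes of 0.43 in ADV and -0.06 in LD mice (p = 0.00370 and 0.536, difference p = 0.00631, FDR 0.249). The differences for Coq10b (p = 7.00e-04, FDR 0.163) and Colec12 (p = 9.76e-05, FDR 0.155) did not pass the adjustment either.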

How the data were processed

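Gastrocnemius RNA of 30 mice (16 ADV, 14 LD) was measured by RNA-seq, 1 library per mouse. Per the labels and the study's methods, the authors trimmed reads, aligned them to GRCm39 with STAR 2.7.10a and counted exon reads of UCSC known canonical genes with HOMER 4.11. The authors deposited estimated counts (each mate of a pair counts as 0.5 read, and 14.8% of values were not whole), which were rounded here. They also deposited FPKM values made from the same reads. The tables hold 57186 rows, and the longest expressed row of each symbol was kept. Of 12030 genes over the filter, 12028 without Dbp and Bmal1 were tested. Groups were compared with edgeR 4.0.16 (R 4.3.3, TMM scaling, quasi-likelihood test, Benjamini-Hochberg adjustment), and slopes in 1 fit of 30 mice with the log2 ratio centred within each schedule. DESeq2 1.42.0 and limma 3.58.1 served as alternatives. Library measures were compared by exact two-sided permutation (scipy 1.17.1). The scripts were tested on simulated data.

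The members and gene lists were chosen with earlier results of these data known. Named genes are all clock genes tested (1 of them is counted but not reported here), and of every other list the 2 with the smallest p. Since no gene was called, the part of the rule for the largest differences named none. Other genes with an unadjusted p under 0.05 (Nr4a1, Klf2, Myh7, Adipoq, Plin1, Fabp4, Col1a1, Tspan4, Por and Leo1), and Thra, Sphk2, Tmem165, Gm53549, Usp2, Ucp3, Colec12, Ctsk and 6530402F18Rik, were named after their values were seen.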

Additional observations from a re-analysis of the deposited data

Results flagged for a closer look

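In 66 groups of 8 mice examined (clock genes, marker sums and library measures), 8 had 1 mouse whose gap to its neighbour was large against the range of the group. These groups hold the same mice and are not independent, and the Dbp to Bmal1 ratio itself chose them. How many flags chance would give was not tested. In the high-ratio group these were Ciart in mouse 25 (4.907 FPKM, the next mouse being at 2.376), Bhlhe41 in mouse 27 (6.914 FPKM, next 4.955), the Dbp to Bmal1 ratio of mouse 21 (2.6323, next 1.1509), the slow-fibre marker sum of mouse 24 (2292.7 FPKM, next 1112.1) and the share of reads on exons in mouse 25 (92.043%, next 91.534%). In the low-ratio group they were Clock (2.316 FPKM, next 4.077) and Rora (2.75 FPKM, next 9.724) in mouse 34, and the share of reads on exons in the same mouse (92.671%, next 91.733%). Mice 25 and 34, with the highest exon shares of their groups, also had the lowest Clock and Rora of their groups. With the exon share as a covariate in edgeR the log2 fold changes of Clock and Rora were -0.44 (unadjusted p = 7.75e-04) and -0.55 (unadjusted p = 0.00135), both with an FDR of 0.592.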

How the results depend on the processing

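Between the high-ratio and low-ratio groups the count of genes called stayed at 0 under limma on log2(FPKM + 0.1) and log2(FPKM + 1), other scalings, other filters, no limit on fold change, summed rows, 7 mice against 7, a GC correction and the exon share or adipocyte sum as a covariate. It was 1 with DESeq2 (Ctsk) and 1 with the log2 ratio as a continuous covariate, where 1 clock gene, Per3, was called (0 without mouse 21). The range over fits without 1 mouse was 0 to 0 called, with 430 (without mouse 24) to 1018 (without mouse 30) genes at an unadjusted p under 0.05. For the slope difference between schedules the count was 39 with DESeq2 and 1257 at an unadjusted p. With the label number as a replicate block over 28 mice it was 1 (Plxna2), against 0 in those mice without the block. The labels do not say if equal numbers pair the mice. Of 14 such pairs, 6 correlated above 0.1 (range -0.26 to 0.43), and 2 ADV mice were closest to their own number. Whether mice of the same number shared an hour or order of collection was not tested. Signs turned for 4 clock genes. Nr1d2 was at -0.0095 with the exon share and -0.047 with the continuous ratio without mouse 21 (without 1 mouse, -0.045 to 0.12). Bhlhe41 was at -0.0076 with the adipocyte sum (without 1 mouse, -0.056 to 0.10). Tef was at 0.032 and 0.0025 with the continuous ratio, with and without mouse 21, and 0.052 with the adipocyte sum (without 1 mouse, -0.047 to 0.018). Nfil3 was at -0.0011 with limma on log2(FPKM + 0.1) and at -0.17 and -0.0043 with the continuous ratio, with and without mouse 21 (without 1 mouse, -0.067 to 0.24). The cause was not tested. The adipocyte covariate, the continuous fit without mouse 21 and the slopes without 1 mouse were chosen after seeing the data.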

Other observations

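The smallest p between the groups was that of Ctsk, cathepsin K, a protease that degrades collagen. It was at 2.33, 2.89 and 4.68 FPKM (lowest, median, highest) in the high-ratio group and 1.66, 1.95 and 2.42 FPKM in the low-ratio group, and 7 of 8 high-ratio mice were above every low-ratio mouse. Its log2 fold change was 0.60 (edgeR p = 7.20e-05, FDR 0.757). The groups did not overlap in 6530402F18Rik, at 1.42 to 1.92 FPKM against 1.16 to 1.41 FPKM. This gene was picked after its values were seen, and the share of all genes without overlap was not counted. Mouse 24 was highest in both genes, as in the adipocyte sum.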
